A study of Mus musculus with 24 samples.

Results

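The Cyp2c genes described here are 9 mouse cytochrome P450 genes, Cyp2c29, Cyp2c37, Cyp2c38, Cyp2c39, Cyp2c40, Cyp2c44, Cyp2c50, Cyp2c54 and Cyp2c55. They were taken by name, as 9 of the 37074 gene and transcript names on the array: every non-control probe whose gene name in the scanner files was a member was kept. This gave 12 probes of 56605, with 2 each for Cyp2c44, Cyp2c50 and Cyp2c55. All 12 were among the 32078 probes bright enough to be tested.

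Liver RNA of C57BL/6J mice was hybridised to 24 single-colour Agilent arrays in 4 groups of 6. The groups are labelled male on the pesticide diet, male on the control diet, female on the pesticide diet and female on the control diet. All mice carry a labelled age of 68 weeks and had received their diet for 52 weeks, the pesticide diet being the control diet with a pesticide mixture added. The study asked what the mixture does in the liver of each sex. The labels name no mouse for an array. What the p-values measure is therefore the spread between arrays, which may in part be technical.

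Sex-linked transcripts did not follow the sex labels. Xist, transcribed from the inactive X chromosome of females, averaged 8.24 and 8.21 log2 units in the labelled male and female pesticide groups, against 5.08 and 5.12 in the labelled male and female control groups. The Y-linked gene Eif2s3y averaged 5.08 and 5.13 in the labelled male and female pesticide groups, against 10.94 and 10.99 in the labelled male and female control groups. On all 12 arrays labelled pesticide Xist was well above background and none of the 4 Y-linked transcripts was, and all 12 labelled control arrays had the reverse, so 12 of 24 arrays went against their sex label. In every comparison between labelled diets below, the labelled diet and the sex-linked transcripts cannot be told apart: arrays with Xist are set against arrays with Y-linked transcripts. Within a labelled diet the labelled sexes did not differ in this way, Xist in labelled males minus labelled females being 0.04 log2 units on the pesticide arrays and -0.04 on the control arrays. Whether the sex and diet labels were exchanged was not tested. Groups are called by their labels throughout.

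Cyp2c enzymes are membrane-bound monooxygenases of the endoplasmic reticulum. They take electrons from cytochrome P450 reductase and oxidise drugs, pesticides and fatty acids, and several turn arachidonic acid into epoxides (epoxyeicosatrienoic acids) or hydroxylated products. In liver, several members are known targets of the constitutive androstane receptor CAR (Nr1i3), a nuclear receptor that responds to foreign chemicals, and of HNF4A, a nuclear receptor of hepatocytes. Some mouse Cyp2c genes are also known to be expressed more in the liver of one sex.

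The genes are close copies of each other, so the probe letters decide which transcripts a value can include. The 60-base probes of Cyp2c29, Cyp2c40, Cyp2c44 and Cyp2c55 that have an open reading frame are printed on the transcript strand. On build mm9 they lie at chr19:39403642-39403701 (plus strand), chr19:39861388-39877026 (minus strand), chr19:44088131-44088190 (minus strand) and chr19:39110063-39110122 (plus strand). The Cyp2c40 probe covers 15639 genomic bases with 60 letters, so it crosses an intron.
Cyp2c29: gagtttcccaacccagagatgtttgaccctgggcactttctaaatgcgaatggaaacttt
Cyp2c40: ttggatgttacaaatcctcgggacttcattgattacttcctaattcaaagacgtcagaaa
Cyp2c44: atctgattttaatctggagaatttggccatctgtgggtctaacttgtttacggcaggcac
Cyp2c55: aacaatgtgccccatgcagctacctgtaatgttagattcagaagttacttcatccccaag

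Accessions listed for the Cyp2c40 probe also belong to Cyp2c68, and those for the Cyp2c37 probe also to Cyp2c50. Values of these 2 probes can therefore hold signal of the neighbour gene and are uncertain as values of the named gene alone. The last 30 bases of the Cyp2c37 probe (chr19:40086399-40086458 on mm9) and the first 30 bases of the brighter Cyp2c50 probe (chr19:40188154-40188213 on mm9) are printed because they share letters. The capitals mark the longest run the 2 probes have in common, 12 bases that end the Cyp2c37 probe and begin the Cyp2c50 probe.
Cyp2c37: cttctgtgatcaccctgaGGCTTTAATTCA
Cyp2c50: GGCTTTAATTCActgctttccacactggac

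Of the 9 genes, 4 were higher in the labelled pesticide groups of both labelled sexes: Cyp2c29, Cyp2c38, Cyp2c39 and Cyp2c40. The dimmer probe of Cyp2c50 was lower in both. The remaining 7 probes, of Cyp2c37, Cyp2c44, Cyp2c50, Cyp2c54 and Cyp2c55, passed the test in neither labelled sex. The threshold was an adjusted p of 0.05 (limma, Benjamini-Hochberg), with the model fitted to log2 quantile-normalised intensity over all 32078 tested probes. In labelled males 4 of 12 member probes passed as higher and 1 as lower, beside 11.6% higher and 10.7% lower (22.2% in all) of the tested probes. In labelled females the counts were again 4 and 1, beside 8.88% higher and 9.44% lower (18.3% in all). The median log2 fold change of the 12 probes was 0.02 in labelled males and -0.12 in labelled females, beside -0.03 and -0.02 over all tested probes. Member probes whose 6 pesticide arrays did not overlap the 6 control arrays numbered 4 in labelled males, beside 10.2% of all tested probes, and 3 in labelled females, beside 7.83%. Cyp2c39 is counted among the higher and the non-overlapping probes of both labelled sexes. It entered the test only through its pesticide arrays, and its control values were not well above background.

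**Figure D1:**
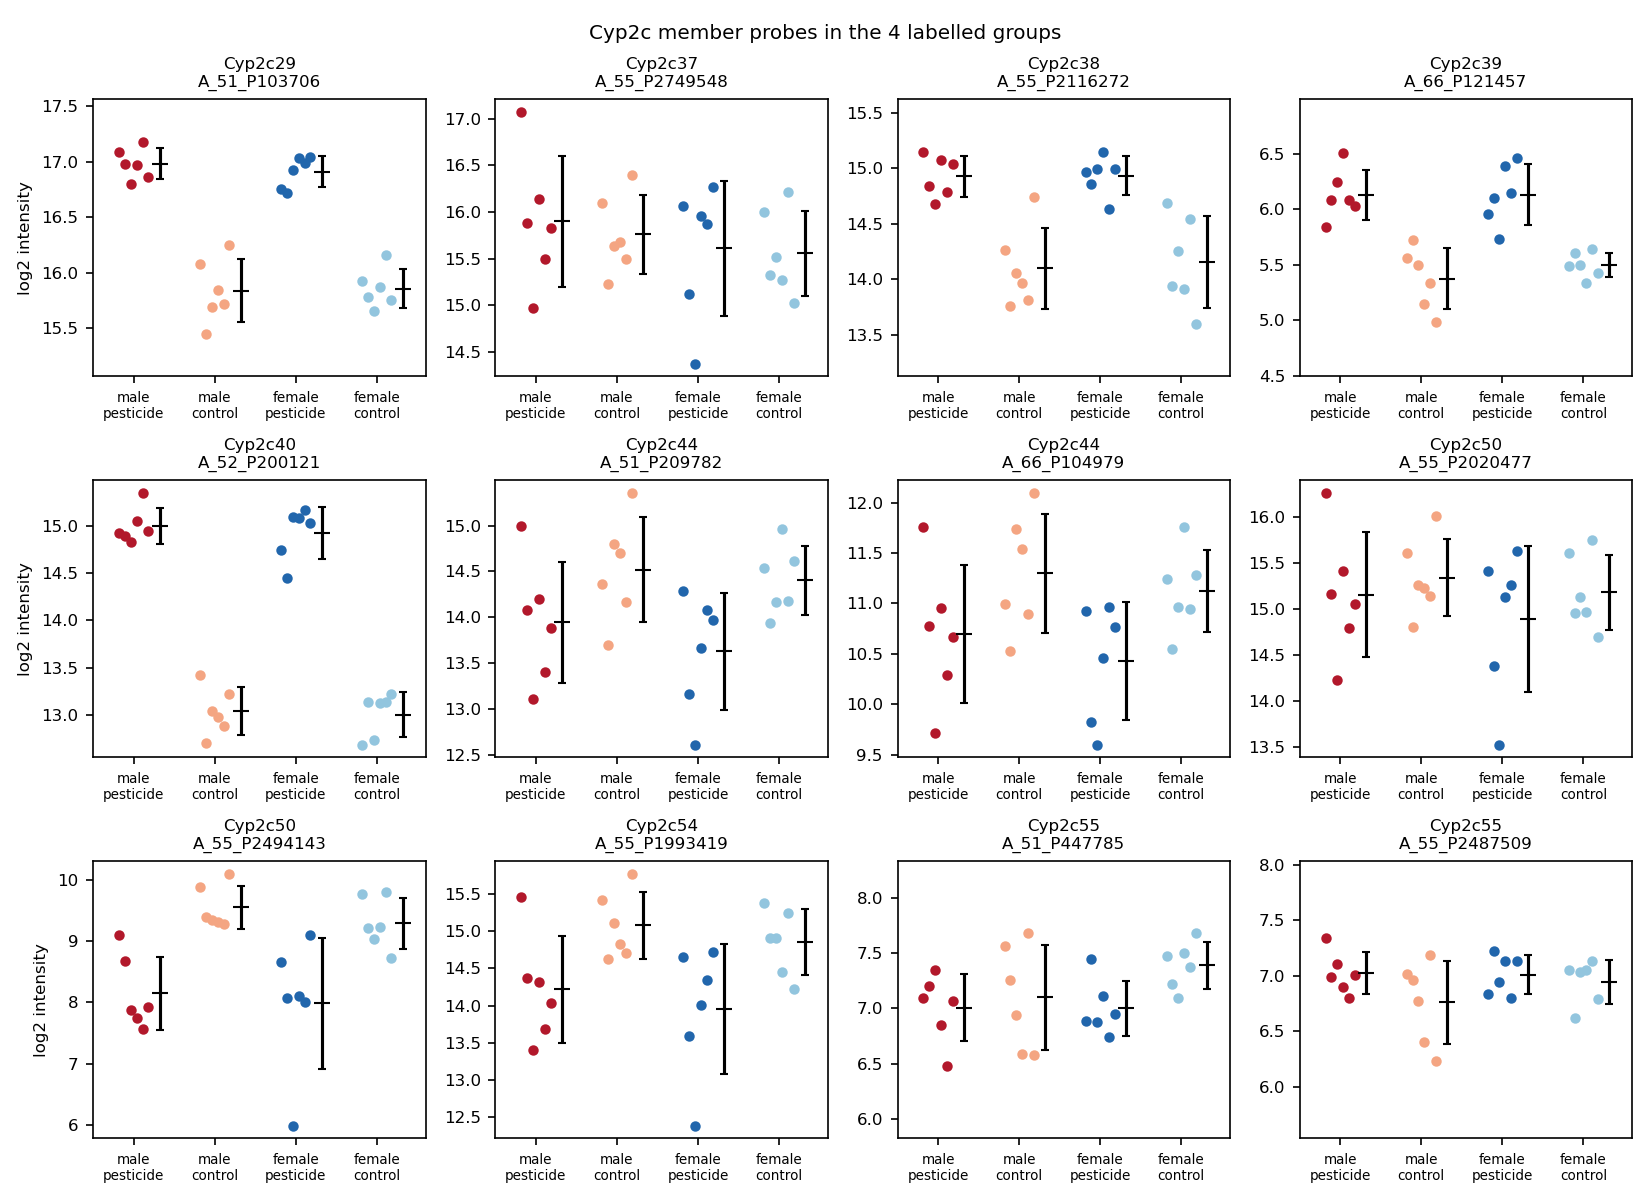
Log2 quantile-normalised intensity (vertical axes, a separate range for each probe) of the 12 Cyp2c probes on the 24 arrays, by labelled group (horizontal axes); points are arrays, the black bars the mean ± SD of 6 arrays. Cyp2c29, Cyp2c39 and Cyp2c40 have no overlap between the pesticide and control groups of either labelled sex, whereas the groups of Cyp2c37 lie on top of each other.

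Cyp2c40, known to hydroxylate arachidonic acid, had the largest change among the member probes that were above background in every group. In labelled males its log2 intensity had a lowest, median and highest value of 14.83, 14.94 and 15.36 on the pesticide arrays, against 12.70, 13.01 and 13.42 on the control arrays. In labelled females the 3 values were 14.45, 15.07 and 15.17 on the pesticide arrays, against 12.68, 13.13 and 13.22 on the control arrays. Every pesticide array was more than 1 log2 unit above every control array. The log2 fold change was 1.97 ± 0.13 in labelled males (SE, limma adjusted p = 8.9e-11), a 3.90-fold difference, and 1.93 ± 0.13 in labelled females (adjusted p = 1.2e-10), a 3.82-fold difference. On the 3 slides taken alone, each with 2 arrays of every group, it was 1.86, 1.94 and 2.10 in labelled males and 1.70, 2.17 and 1.93 in labelled females.

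Cyp2c29 is one of the abundant Cyp2c enzymes of mouse liver and forms arachidonic acid epoxides. It spanned 16.80 to 17.18 (median 16.97) on the labelled male pesticide arrays, against 15.45 to 16.25 (median 15.78) on the male control arrays. On labelled female arrays it spanned 16.72 to 17.04 (median 16.96) with pesticides, against 15.65 to 16.16 (median 15.82) without. The groups of each labelled sex stood apart, by a 2.21-fold difference in males and a 2.08-fold difference in females (log2 1.14 ± 0.11 and 1.05 ± 0.11, limma adjusted p = 5.7e-08 and 2.6e-07). Its level is not set against that of Cyp2c40, since intensities of different probes are not comparable.

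Cyp2c38 and Cyp2c39 encode closely related enzymes, the first an arachidonic acid epoxygenase and the second known to hydroxylate retinoic acid. Cyp2c38 had a lowest, median and highest log2 intensity of 14.68, 14.94 and 15.15 on the labelled male pesticide arrays, against 13.76, 14.01 and 14.74 on the control arrays. In labelled females the values were 14.63, 14.98 and 15.15 with pesticides, against 13.60, 14.10 and 14.69 without. A single control array in each labelled sex reached into the pesticide range, and the difference passed in both (log2 0.83 ± 0.17 and 0.78 ± 0.17, limma adjusted p = 0.00088 and 0.0020).

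Cyp2c39 was the dimmest member probe, with 5.84, 6.08 and 6.51 as lowest, median and highest value on the labelled male pesticide arrays, against 4.98, 5.42 and 5.72 on the control arrays. The labelled female arrays had 5.73, 6.13 and 6.46 with pesticides, against 5.34, 5.50 and 5.64 without. It was well above background on 6 of 6 arrays in both pesticide groups and on 0 of 6 in both control groups. Its fold is therefore a bound, at least 1.52-fold higher in labelled males and at least 1.51-fold higher in labelled females. The bound sets the pesticide mean against a control value raised, per array, to the lowest signal that still counted as above background. The probe entered the test through its pesticide arrays.

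Cyp2c50, Cyp2c54 and Cyp2c37 lie next to each other on the chromosome. Cyp2c50 and Cyp2c54 encode enzymes known to make arachidonic acid epoxides, and Cyp2c37 one known to make a hydroxylated product. The dimmer of the 2 Cyp2c50 probes (chr19:40166565-40166624 on mm9, plus strand) had a lowest, median and highest log2 intensity of 7.56, 7.90 and 9.09 on the labelled male pesticide arrays, against 9.27 and 9.37 as lowest and median value on the control arrays, whose mean was 9.55 ± 0.35 (SD, n = 6). In labelled females it had 5.99, 8.09 and 9.10 with pesticides, against 8.72, 9.22 and 9.80 without. The pesticide arrays were lower in both, without overlap in labelled males and with overlap in labelled females. The log2 fold change was -1.40 ± 0.36 (limma adjusted p = 0.0066) in labelled males and -1.30 ± 0.36 (adjusted p = 0.013) in labelled females. The lowest value, 5.99, belonged to labelled female pesticide array 3, and without that array the labelled female log2 fold change was -0.90, with a limma adjusted p of 0.022.

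The brighter Cyp2c50 probe did not give the same picture. It spanned 14.23 to 16.27 (median 15.12) on the labelled male pesticide arrays, against 14.81 to 16.02 (median 15.24) on the control arrays. Labelled females had 13.53 to 15.63 (median 15.20) with pesticides, against 14.70 to 15.75 (median 15.05) without. The pesticide arrays were spread on both sides of the control arrays in labelled males. In labelled females they overlapped the control arrays and reached lower. The log2 fold changes of -0.19 ± 0.32 and -0.29 ± 0.32 did not pass (limma adjusted p = 0.72 and 0.57). The within-array difference between the 2 probes, brighter minus dimmer, averaged 7.01 ± 0.49 on the labelled male pesticide arrays and 5.80 ± 0.20 on the control arrays. In labelled females it averaged 6.91 ± 0.46 with pesticides and 5.90 ± 0.14 without (SD, n = 6 arrays each). In both labelled sexes the groups stood apart, with an exact permutation p of 0.0022, the smallest that 6 against 6 arrays allow (two-sided, adjusted p = 0.0065 over 6 tests of genes with 2 probes). Both probes are on the plus strand, and the dimmer one lies before the brighter one on the chromosome. Its annotated start in the transcript is nevertheless later, base 1632 against base 1542. By this annotation the 2 probes belong to different Cyp2c50 transcripts, not to 2 stretches of the same one. The value of this gene depends on the probe.

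Cyp2c54 was lower by its means and did not pass. Its log2 intensity spanned 13.41 to 15.46 (median 14.18) on the labelled male pesticide arrays, against 14.63 to 15.77 (median 14.97) on the control arrays. In labelled females it spanned 12.39 to 14.72 (median 14.17) with pesticides, against 14.22 to 15.37 (median 14.91) without. The groups overlapped, and the log2 fold changes were -0.86 ± 0.34 and -0.90 ± 0.34 (limma adjusted p = 0.075 and 0.071). The call and the value depended on single arrays. Without labelled male pesticide array 1 the labelled male value was -1.11 (limma adjusted p = 0.018) and the labelled female one passed through the shared spread (adjusted p = 0.046). Without labelled female pesticide array 3 the labelled female value was -0.59 (limma adjusted p = 0.19), and the labelled male one passed through the shared spread (adjusted p = 0.032). The labelled female value was -1.04 without pesticide array 1 and -1.05 without pesticide array 6 (adjusted p = 0.04998 and 0.043). With the replicate number as a block in the model, Cyp2c54 passed as lower in both labelled sexes.

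Cyp2c37 spanned 14.97 to 17.08 (median 15.85) on the labelled male pesticide arrays, against 15.23 to 16.40 (median 15.66) on the control arrays. On labelled female arrays it spanned 14.37 to 16.27 (median 15.92) with pesticides, against 15.02 to 16.22 (median 15.42) without. The pesticide range enclosed the control range in both labelled sexes. The log2 fold change was 0.14 in labelled males, with a 95% interval of -0.51 to 0.79, and 0.05 in labelled females, with an interval of -0.60 to 0.71 (limma adjusted p = 0.80 and 0.93).

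Cyp2c44, called Cyp2c23 in RefSeq, is an arachidonic acid epoxygenase best known from kidney and vessels. It lies apart from the other members on the same chromosome. On its brighter probe the log2 intensity spanned 13.11 to 14.99 (median 13.98) on the labelled male pesticide arrays, against 13.70 to 15.36 (median 14.53) on the control arrays. In labelled females it spanned 12.61 to 14.29 (median 13.82) with pesticides, against 13.94 to 14.96 (median 14.36) without. The pesticide arrays were lower by their medians, with overlap, and the log2 fold changes of -0.57 ± 0.30 and -0.77 ± 0.30 did not pass (limma adjusted p = 0.19 and 0.081). The second probe gave -0.60 ± 0.31 and -0.70 ± 0.31 (adjusted p = 0.17 and 0.12). With the replicate number as a block in the model, a Cyp2c44 probe passed as lower in labelled females. The changes of the 2 probes were not told apart (exact permutation p = 0.63 in labelled males and 0.26 in labelled females).

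Cyp2c55 is best known from mouse colon, where it hydroxylates arachidonic acid. Its 2 probes were dim, with all values between 6.23 and 7.68 log2 units. On the probe at chr19:39116674-39116733 (mm9, plus strand) the medians of the pesticide groups were 7.08 in labelled males and 6.92 in labelled females, against 7.10 and 7.42 in the control groups of labelled males and females. On the probe whose letters are printed above, the medians of the pesticide groups were 6.997 in labelled males and 7.04 in labelled females, against 6.87 and 7.04 in the control groups. The groups overlapped on both. Neither probe passed in either labelled sex, the lowest limma adjusted p being 0.13. The change of the first probe minus that of the second was -0.36 log2 units in labelled males and -0.45 in labelled females (exact permutation, adjusted p = 0.019 and 0.0087).

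Whether members changed by different amounts was tested on the within-array difference between the representative probes of each pair of genes, 36 pairs in 2 labelled sexes. Each test compared 6 pesticide with 6 control arrays by exact permutation, two-sided, adjusted over all 72. Of these, 54 passed, 27 in each labelled sex, and 40 had the smallest p the design allows, 0.0022. The 16 tests with Cyp2c39 are not read further, since its change is only a bound. Of the 56 without it, 44 passed, 33 of them with the smallest p, with the adjustment still over all 72. The pairs reuse the same probes, so the tests are not separate findings. No share was computed over pairs of other tested probes, so the counts are not read as a trait of the family. The Cyp2c40 probe, which is also listed for Cyp2c68, changed more than the probes of Cyp2c29 and Cyp2c38. The change of Cyp2c29 minus that of Cyp2c40 was -0.82 log2 units in labelled males and -0.88 in labelled females (exact permutation, adjusted p = 0.0039 in each). For Cyp2c38 minus Cyp2c40 it was -1.13 and -1.16 (adjusted p = 0.0039 and 0.0069).

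Among probes that did not pass, the ratios between genes still moved. Relative to Cyp2c37, Cyp2c54 was lower on the pesticide arrays by 1.00 log2 units in labelled males and 0.95 in labelled females (exact permutation, adjusted p = 0.0039 in each). Relative to Cyp2c37, the brighter Cyp2c50 probe was lower by 0.33 and 0.35 (adjusted p = 0.0039 in each). In all 4 cases the pesticide and control arrays did not overlap, although the groups of each of the 3 probes overlapped by themselves. Cyp2c44 and Cyp2c54 were not told apart (0.29 and 0.13, exact permutation, adjusted p = 0.13 and 0.73). A change of a ratio shows that 2 probes changed unequally, not that either stayed the same. Since the Cyp2c37 probe is also listed for Cyp2c50, its ratios hold for the probe and not for Cyp2c37 alone.

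**Figure D2:**
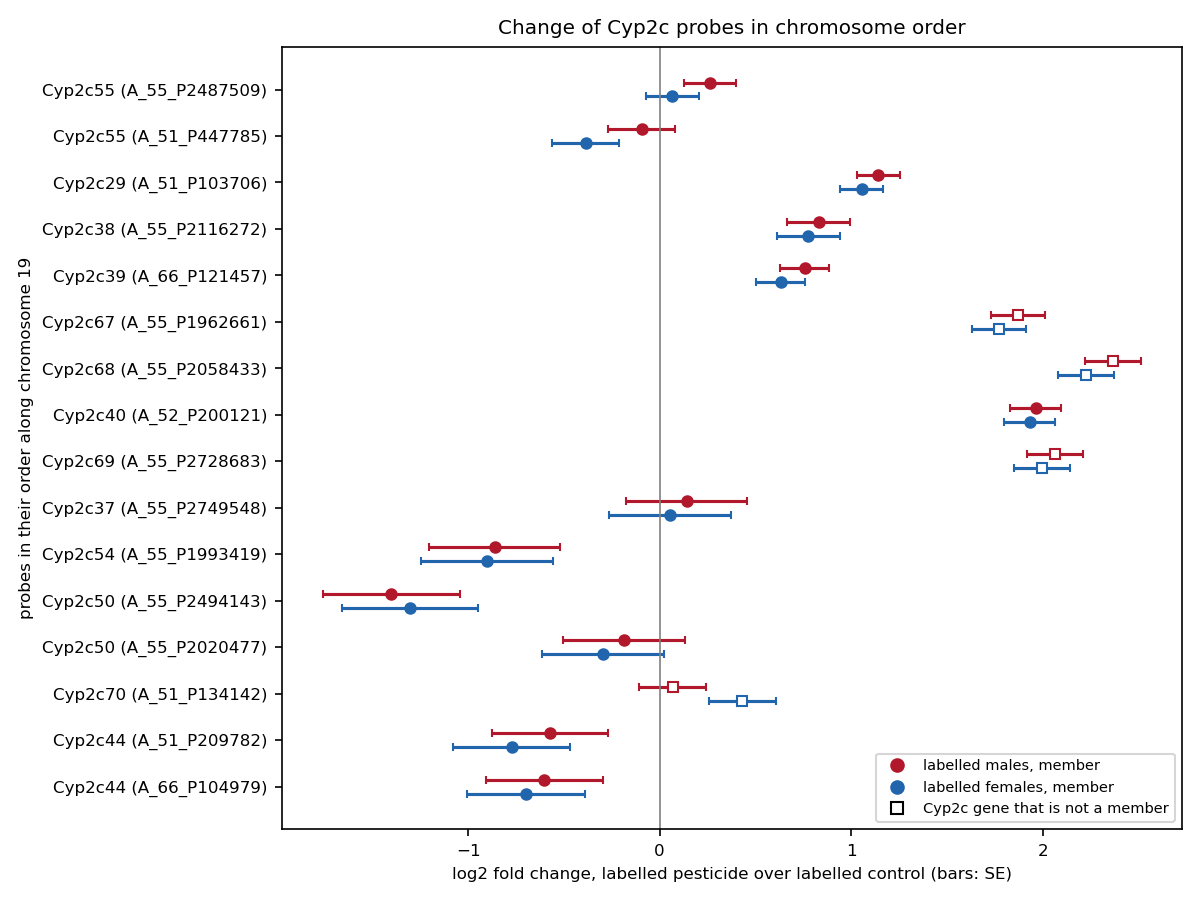
Log2 fold change, labelled pesticide over labelled control (horizontal axis, points with SE bars), of the Cyp2c probes in their order along chromosome 19 (vertical axis); filled circles are members and open squares other Cyp2c genes, red for labelled males and blue for labelled females. The probes from Cyp2c29 to Cyp2c69 all lie to the right of 0 (0.78 to 2.37 without Cyp2c39, whose fold is a bound), and from Cyp2c37 on the values lie between -1.40 and 0.43.

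A further 6 Cyp2c genes of the mouse lie in the same stretch of chromosome 19, and 4 of them had a tested probe. Cyp2c67, Cyp2c68 and Cyp2c69, which neighbour Cyp2c40, passed as higher in both labelled sexes. Their log2 fold changes were 1.87 and 1.77 for Cyp2c67, 2.37 and 2.23 for Cyp2c68, and 2.06 and 2.00 for Cyp2c69, labelled males before females. Cyp2c70 had 0.07 and 0.43 (limma adjusted p = 0.82 and 0.088). Cyp2c65 and Cyp2c66 were too dim to be tested. By position on mm9 the order was Cyp2c55, Cyp2c65, Cyp2c66, Cyp2c29, Cyp2c38, Cyp2c39, Cyp2c67, Cyp2c68, Cyp2c40, Cyp2c69, Cyp2c37, Cyp2c54, Cyp2c50 and Cyp2c70, with Cyp2c44 farther along. The probes of all 7 genes from Cyp2c29 to Cyp2c69 passed as higher in both labelled sexes. This grouping was seen in the data and has no test of its own, and the probes are not separate readings of 7 genes. The Cyp2c40 probe is also listed for Cyp2c68, the Cyp2c68 probe for Cyp2c40 and Cyp2c69, and the Cyp2c69 probe for Cyp2c40, Cyp2c67 and Cyp2c68.

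Differences between the labelled sexes were not found for any member. The labelled diet effect in males minus that in females ranged from -0.10 to 0.29 log2 units over the 12 probes, and 0 passed (limma). No member had an unadjusted p under 0.05, and over all tested probes 0% passed while 1265 had an unadjusted p under 0.05. Labelled male minus labelled female, over both diets, ranged from -0.14 to 0.25, with 95% intervals from -0.40 to 0.75 at the widest. Here too 0 of 12 members passed, 0% of all tested probes passed, and no member had an unadjusted p under 0.05, against 1794 of all tested probes. Within the pesticide groups alone and within the control groups alone, 0 members and 0% of the tested probes passed in limma. No member had an unadjusted p under 0.05 in either, against 1311 and 1792 of all tested probes.

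Without the 12 arrays that went against their sex label, only the labelled female pesticide and the labelled male control group remain. These differ both in labelled diet and in labelled sex. Between these, 4 of 12 member probes were higher and 2 lower (limma adjusted p under 0.05), beside 10.4% higher and 9.58% lower (20% in all) of all tested probes. The higher ones were Cyp2c29, Cyp2c38, Cyp2c39 and Cyp2c40, of which Cyp2c39 entered the test only through its pesticide arrays. The lower ones were the dimmer Cyp2c50 probe and Cyp2c54, the latter with a log2 fold change of -1.13 (limma adjusted p = 0.033). The same arrays entered the comparisons within each labelled sex, so these calls are no separate support for them. Between the 12 arrays left out, labelled male pesticide against labelled female control, 4 probes were higher and 1 was lower, beside 8.71% higher and 8.48% lower (17.2% in all) of all tested probes.

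Within a group, some members varied more from array to array than others. The SD over the 6 labelled male pesticide arrays was 0.14 for Cyp2c29 and 0.19 for Cyp2c40, but 0.70 for Cyp2c37, 0.68 for the brighter Cyp2c50 probe, 0.71 for Cyp2c54 and 0.66 for Cyp2c44. The gap was smaller on the labelled male control arrays, where the SD was 0.29 for Cyp2c29 and 0.25 for Cyp2c40, beside 0.42 for Cyp2c37, 0.42 for the brighter Cyp2c50 probe, 0.45 for Cyp2c54 and 0.57 for Cyp2c44. On the labelled male pesticide arrays Cyp2c37, Cyp2c50, Cyp2c54 and Cyp2c44 were all highest on array 1 and all lowest on array 3. In the labelled female pesticide group all 4 were lowest on array 3.

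**Figure D3:**
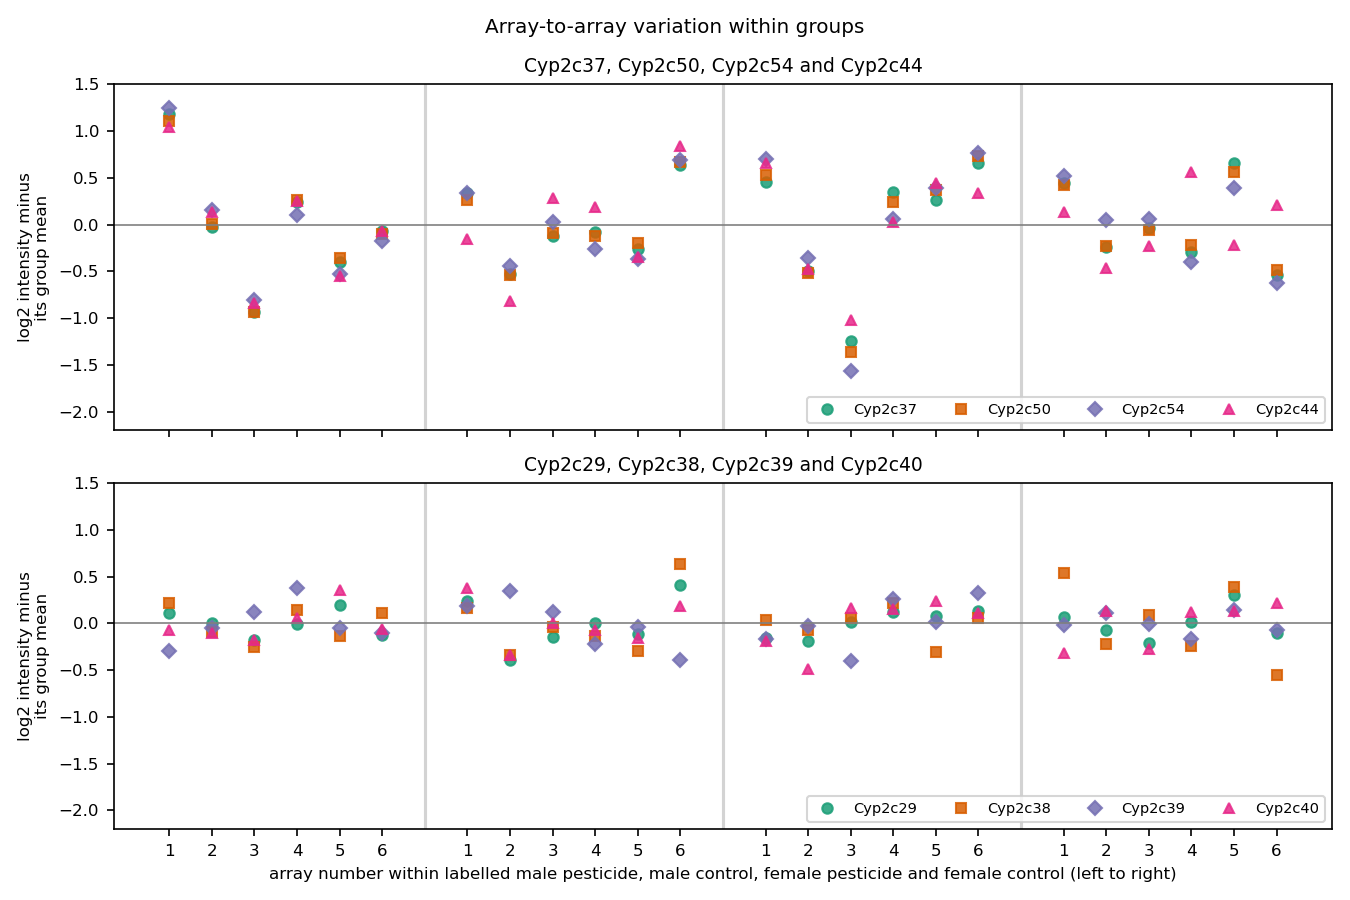
Deviation of each array from its group mean in log2 units (vertical axes) for 8 members, with the arrays of the 4 labelled groups side by side (horizontal axis). In the upper panel Cyp2c37, Cyp2c50 and Cyp2c54 keep close together on nearly every array (SD 0.68 to 0.71 in labelled male pesticide), while in the lower panel Cyp2c29 and Cyp2c40 stay nearer to their group means (SD 0.14 and 0.19).

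Correlations within groups were examined after the values had been seen, as 60 relations between 6 members within each group of 6 arrays, by exact permutation. Of the 60, 17 passed by Pearson's r and 5 by Spearman's rho (adjusted p under 0.05). Among Cyp2c37, Cyp2c50, Cyp2c54 and Cyp2c44, 15 and 5 of 24 passed. For Cyp2c29 with Cyp2c40, 0 of 4 passed by either. For Cyp2c37 and the brighter Cyp2c50 probe, Pearson's r was 0.999 in the labelled male pesticide group, 0.993 in male control, 0.996 in female pesticide and 0.997 in female control. The permutation p was 0.0028 in the first group and 0.0056 in the other 3, with an adjusted p of 0.026 in each. Spearman's rho was 1.00 in the first and 0.943 in the other 3 groups, with adjusted permutation p-values of 0.033 and 0.059. Without the 2 arrays farthest from the median of Cyp2c37, r was 0.994, 0.980, 0.900 and 0.985 in the same order. The 2 probes share 12 bases, and the Cyp2c37 probe is listed for Cyp2c50 as well.

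Cyp2c44 moved with Cyp2c37 in the labelled male pesticide group (r = 0.987, exact permutation adjusted p = 0.026; rho = 1.00, adjusted p = 0.033). In the labelled female control group it did not (r = -0.28, exact permutation adjusted p = 0.78; rho = -0.43, adjusted p = 0.60). The difference between these 2 correlations was not tested. Cyp2c37 and Cyp2c29 gave r = 0.985 in the labelled male control group (exact permutation adjusted p = 0.026; rho = 0.943, adjusted p = 0.059) and 0.43 in the labelled male pesticide group (adjusted p = 0.56; rho = 0.37, adjusted p = 0.64). Without the 2 arrays farthest out, r was 0.937 and -0.68. The difference between the male control and male pesticide correlations was not tested either. Each slide holds 2 arrays of a group, too few for a value within a slide.

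The genes whose pattern over all 24 arrays was most like that of a member were named by Pearson's r among 24247 tested probes that carry a gene symbol. The arrays share the labelled group difference, which enters each r. Cyp2c40 was most like Cyp2c68 (r = 0.995), Cyp2c69 (0.992) and Cyp2c67 (0.985). The Cyp2c68 and Cyp2c69 probes are also listed for Cyp2c40, so these 3 probes may read the same transcripts. Cyp2c29 was most like Cyp2c68 (0.97), the carboxylesterase Ces1c (0.96) and Cyp2c69 (0.96). For Cyp2c38 they were the glucocorticoid-activating enzyme Hsd11b1 (0.96), the receptor CAR, Nr1i3 (0.93), and angiotensinogen, Agt (0.92). For Cyp2c39 they were Atp6v0d2 (0.92), Sh2d4a (0.92) and Metap1d (0.91).

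The other members had lower best correlations. Cyp2c37 was most like Uqcc2 (0.80), and the brighter Cyp2c50 probe most like the kinase gene Srpk2 (0.84), followed by Glo1 (0.82) and another P450 gene, Cyp2e1 (0.78). Cyp2c54 was most like Csnk2a1 (0.88), Cyp2c44 most like Nadk2 (0.87), a mitochondrial NAD kinase gene, and Cyp2c55 most like Pacsin2 (0.84).

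Promoters of 6 members are printed because they differ in 1 motif. Promoters came from RefSeq on GRCm38.p6, from 250 bases before to 50 after the start, and were found for 7 of the 9 members (8 promoters, since Cyp2c39 has 2 starts). Cyp2c44 and Cyp2c54 were not matched. The core letters of the HNF4A motif, CAAAGTC, were searched on both strands and stood in 4 of the 7 genes (Cyp2c29, Cyp2c37, Cyp2c39 and Cyp2c40) and in 5 of the 8 promoters. The share was 4.44% over the 32851 promoters available. It stood in the promoters of all 6 other Cyp2c genes as well. On the gene's strand the windows lie at chr19:39286956-39287005 for Cyp2c29 (plus), chr19:39510716-39510765 for Cyp2c39 (plus), chr19:39812830-39812879 for Cyp2c40 (minus) and chr19:39992288-39992337 for Cyp2c37 (plus). Capitals mark the motif. For Cyp2c38 (chr19:39463157-39463206, minus) and Cyp2c50 (chr19:40089545-40089594, plus), which lack it, capitals mark the 7 bases at the same place when the window is aligned to that of Cyp2c37 without gaps.
Cyp2c29: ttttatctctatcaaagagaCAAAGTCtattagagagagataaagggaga
Cyp2c39: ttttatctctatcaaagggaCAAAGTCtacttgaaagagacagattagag
Cyp2c40: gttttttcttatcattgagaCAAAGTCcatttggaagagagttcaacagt
Cyp2c37: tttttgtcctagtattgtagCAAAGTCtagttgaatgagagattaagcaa
Cyp2c38: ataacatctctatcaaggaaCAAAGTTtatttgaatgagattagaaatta
Cyp2c50: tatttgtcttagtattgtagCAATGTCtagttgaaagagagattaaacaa

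The Cyp2c50 window was identical to that of Cyp2c37 at 45 of 50 bases, and the Cyp2c38 window at 27 of 50. Exact matches to the motif went with the calls for some of the 7 members with a promoter and not for others. Cyp2c29, Cyp2c39 and Cyp2c40 held the motif and were higher. Cyp2c50 and Cyp2c55 lacked it, and neither passed as higher. Cyp2c37, which did not pass, held the motif, and Cyp2c38, which was higher, had CAAAGTT at the aligned place. Whether the motif has a part in the changes was not tested. The nuclear receptor site letters AGGTCA stood in 2 of the 8 promoters, against 16.3% of all. These were the promoter of Cyp2c29 and that of the other Cyp2c39 start, whose window is not printed. The letters TTCNNNGAA, the core of STAT5 sites, stood in 0 of the 8 against 8.3% of all. The direct repeat of AGGTCA with 4 bases between its copies, which overlaps the AGGTCA search, stood in 0 of the 8 against 0.0152% of all. No match means only that these letters are not in this window.

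Of 26 genes for regulators of Cyp2c transcription, 4 passed as higher and 3 as lower in labelled males, and 4 as higher and 2 as lower in labelled females, beside 22.2% and 18.3% of all tested probes that passed either way. Cux2, a repressor known for its female-biased expression in mouse liver, had a fitted log2 fold change of 4.36 ± 0.17 in labelled males and 4.58 ± 0.17 in labelled females (limma adjusted p = 3.7e-16 and 1.5e-16). It averaged 10.06 and 10.11 in the labelled male and female pesticide groups, against 5.70 and 5.53 in the labelled male and female control groups, where it was well above background on only 2 and 1 of 6 arrays. The exact size of its fold therefore rests mostly on values not well above background. Nr1i3 was higher by 0.75 ± 0.13 and 0.74 ± 0.13 (adjusted p = 0.00016 and 0.00021). The bile acid receptor gene Nr1h4 was lower by its log2 fold changes of -0.42 ± 0.08 and -0.38 ± 0.08 (adjusted p = 0.00047 and 0.0015). The glucocorticoid receptor gene Nr3c1 (0.31 and 0.21) also passed in both.

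Of 18 genes whose proteins supply P450 enzymes with electrons and haem, 1 passed as higher and 2 as lower in labelled males, and 0 as higher and 3 as lower in labelled females, beside the same 22.2% and 18.3% of all tested probes. Urod, an enzyme of haem synthesis, passed in both with a log2 fold change of -0.23 ± 0.07 in each (limma adjusted p = 0.018 and 0.021). The haem-degrading Hmox1 had 0.70 ± 0.22 in labelled males (adjusted p = 0.026) and 0.47 ± 0.22 in labelled females, which did not pass (adjusted p = 0.15). Por, the reductase of microsomal P450 enzymes, named here for its role after its values were seen, had 0.03 ± 0.19 and 0.24 ± 0.19 (adjusted p = 0.94 and 0.41).

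Of 32 genes of arachidonic acid, epoxide and retinoid metabolism, 29 were tested. In labelled males 3 passed as higher and 5 as lower, and in labelled females 3 as higher and 3 as lower, beside 22.2% and 18.3% of all tested probes. Ephx2, the soluble epoxide hydrolase that breaks down the epoxides made by Cyp2c enzymes, had a log2 fold change of -0.66 ± 0.11 in labelled males and -0.30 ± 0.11 in labelled females (limma adjusted p = 8.2e-05 and 0.0499). Pla2g4a, a phospholipase that releases arachidonic acid, had 1.03 ± 0.22 in labelled males (adjusted p = 0.0016) and 0.60 ± 0.22 in labelled females, which did not pass (adjusted p = 0.055). Acsl4, which activates arachidonic acid, had -0.60 ± 0.14 and -0.59 ± 0.14 (adjusted p = 0.0028 and 0.0037). Ptgs1, a cyclooxygenase, had 0.85 ± 0.19 and 0.67 ± 0.19 (adjusted p = 0.0028 and 0.018), and Alox5ap, the 5-lipoxygenase activating protein, had 1.01 ± 0.18 and 0.51 ± 0.18 (adjusted p = 0.00021 and 0.045).

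Markers of several other liver cell types moved with the labelled diet. In bulk tissue a change in the number of cells and a change in RNA per cell cannot be told apart. Over all tested probes 11.6% passed as higher and 10.7% as lower in labelled males, and 8.88% and 9.44% in labelled females. Of 11 Kupffer cell and macrophage markers, 10 passed as higher in the labelled pesticide groups of each labelled sex. Their mean log2 intensity ranged over the labelled male arrays from 11.31 to 12.12 with pesticides, against 9.97 to 11.65 without, and over the labelled female arrays from 10.88 to 12.50 with pesticides, against 9.79 to 12.01 without. Of 8 endothelial markers 7 passed as higher in labelled males and 5 in labelled females, and of 8 stellate markers 6 and 3. Of 6 neutrophil markers 3 and 4 passed as higher, of 6 B and plasma cell markers 4 and 0, of 7 tested T and NK cell markers 2 and 1, and of 6 bile duct markers 0 and 0. Of 3 tested intestine markers 2 and 1 passed as lower. Of 10 hepatocyte markers 0 passed in labelled males and 1 passed as higher in labelled females. The mean of the hepatocyte list ranged from 17.02 to 17.14 with pesticides, against 17.09 to 17.22 without, in labelled males, and from 16.94 to 17.12 with pesticides, against 16.98 to 17.10 without, in labelled females. All Kupffer, endothelial, stellate and hepatocyte markers were well above background on every array. Their part in the Cyp2c values was not tested.

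The arrays had between 29935 and 39032 probes well above background (median 31519), and 0 member spots were saturated. The array with 39032 was labelled female pesticide array 3, followed by one with 33393. It also had the highest median signal, 109 fluorescence units against 63 to 81 on the others, and the lowest values of Cyp2c37, Cyp2c44, Cyp2c50 and Cyp2c54 in its group.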

How the data were processed

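Spot intensity of 1 dye (Cy3), with local background and quality marks, is what the scanner files hold per the file headers. They were extracted with Agilent Feature Extraction 10.10.1.1, per the submitters' processing notes. A table of log2 values was also deposited, made by the authors by filtering, log2 transformation and quantile normalization per the labels, with limma named in the notes. All 24 scanner files correlated best with their own column of that table.

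The median spot signal was used without background subtraction. Of 62976 spots, 3671 control spots were left out, spots marked as outliers were set to missing, and spots of a probe were averaged to 56605 probes, which were log2 transformed and quantile normalized. Tested were the 32078 probes marked well above background on 4 or more of the 6 arrays in any group. In limma 3.58.1 (R 4.3.3) each group had its own mean, all 24 arrays shared the spread, and no block was used. P-values were two-sided and Benjamini-Hochberg adjusted over the tested probes, with a threshold of 0.05. The fit was tested on simulated data. Ratios between members were tested by exact permutation (Python 3.11.15, scipy 1.17.1), on each gene's brightest tested probe.

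Members, gene lists and tests were chosen with earlier results of these data known. From each list the genes with the smallest p were named, up to 5, and for each member the 3 genes most like it. A listed gene is counted but not reported by name. The labels give the replicate numbers no meaning as pairs, and numbers follow the slides, 2 to a slide. Of 36 same-numbered pairs, the correlation of deviations from the group mean ran from -0.12 to 0.34, and 15 were over 0.1. Intensities carry no counts, so the number of arrays limits the precision. Alternatives were the background correction, the scaling, the filter, the slide, the replicate block, the samples fitted, the variance model, the authors' values and each array left out.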

Additional observations from a re-analysis of the deposited data

Results flagged for a closer look

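Of 48 sets of 6 arrays (12 member probes in 4 labelled groups), 1 held an array far from its group. On the dimmer Cyp2c50 probe, labelled female pesticide array 3 had a log2 intensity of 5.99, where the other 5 arrays of its group lay between 8.00 and 9.10. The gap to the nearest array was 0.646 of the whole range of the group, above Dixon's critical value for 6 arrays. Chance gives about 1 such array in 20 groups. This array also had more probes above background (39032) and a higher median signal (109) than any other. Its part in the Cyp2c50 value was not tested beyond leaving it out.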

How the results depend on the processing

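The counts of member probes that passed, 5 in each labelled sex, stayed at 5 in both under normexp background correction, both 75th-percentile scalings, no filter on dim probes, a slide block, a fit of only the arrays compared, trended and robust variances and the authors' deposited values. Restricted to probes above background on all 24 arrays it was 4 in each, since Cyp2c39 was then not tested. Each slide alone, with 2 arrays per group, gave fewer: 2, 2 and 1 in labelled males and 1, 2 and 1 in labelled females on slides 1, 2 and 3, all of them higher. The low number of arrays is part of these settings. Calls over all tested probes fell as well. Those passing as higher numbered 578, 308 and 230 in labelled males and 668, 162 and 160 in labelled females. Leaving out each array in turn gave 5 to 6 in labelled males and in labelled females. With the replicate number as a block the counts were 6 and 7. Cyp2c54 then passed in both labelled sexes (limma adjusted p = 0.040 and 0.038) and Cyp2c44 in labelled females (adjusted p = 0.038). Over all 32078 tested probes the block gave 4105 higher and 3994 lower in labelled males, against 3713 and 3418 without it. In labelled females it gave 3215 and 3536, against 2849 and 3029. The numbers mark no known pairing but follow the slides, 2 to a slide. Of 24 arrays, 14 correlated best with their own number, more than random numbering from 1 to 6 would give. Same-numbered arrays thus deviated together in part, and whether this came through the slides was not tested. Of the 72 tests of ratios, 54 passed, 53 with 75th-percentile scaling and 50 to 56 without each array. The contrasts between labelled sexes and the interaction gave 0 under every alternative run. Among the other alternatives a log2 fold change changed sign only in slides taken alone, in 6 of 155 values for labelled males and 4 of 155 for labelled females, none of them of a probe that passed. Leaving out single arrays turned the sign of Cyp2c37, which did not pass (-0.10 to 0.33 in labelled males and -0.08 to 0.30 in labelled females), and of 1 Cyp2c55 probe in labelled males (-0.20 to 0.02). The 12 arrays that match their sex label gave 6, an alternative chosen after seeing the data. It set labelled female pesticide against labelled male control arrays. Labelled diet and labelled sex both differ there, so it cannot check the counts within a labelled sex.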
